A study of Mus musculus with 30 samples.

Results

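Wild-type B6 males that had eaten benzo[a]pyrene (BaP) for 4, 8, 12 or 16 weeks were compared with wild-type B6 males at week 0, before any BaP. Arrays were placed by the genotype and week in their titles: 8 arrays on BaP, 2 at each week, and 2 at week 0, which makes 10 of the 30 arrays of the series. Feeding began at 6 weeks of age with corn-oil-soaked food that delivered about 12.5 mg/kg/day, so a mouse at a later week was both longer exposed and older, and the effects of BaP and of age cannot be told apart here. By the protocols each array came from the preputial glands of 1 mouse, while the labels call the tissue preputial gland duct. Which of these was hybridised is not settled. The other 20 arrays, 10 of Cyp1a1 knockout (KO) males and 10 of Cyp1a1/1b1 double knockout (DKO) males on the same diet and schedule, enter only where the change in wild type was set against theirs. The design asks how gland expression moves over the weeks within a genotype, in a study of squamous cell carcinoma of this duct.

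BaP is a polycyclic aromatic hydrocarbon formed in combustion. It binds the aryl hydrocarbon receptor (AhR), a transcription factor that induces Cyp1a1 and Cyp1b1, and the enzymes these genes encode both detoxify BaP and convert it to DNA-binding metabolites. After oral dosing much of the compound is met first by the gut and liver, where inducible Cyp1a1 speeds its clearance. Preputial glands are paired modified sebaceous glands that secrete lipid and pheromones through a duct lined by squamous epithelium.

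Levels are log2 intensities after RMA (background correction, quantile normalization and probe summary), so a difference of 1 is a 2-fold difference. Each gene was represented by 1 probe set, and levels are compared between arrays only, not between genes. The 18784 genes were fitted in limma on the 10 wild-type arrays with a mean for each week. A gene was called, and is said to have risen or fallen, at a Benjamini-Hochberg adjusted p under 0.05 over all genes. Errors after ± are standard errors of that fit unless SD is written. With 2 mice a week, p-values measure the spread between those mice, and every week was compared with the same 2 week 0 arrays, so the weekly differences are not independent of one another.

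Of 24 sebaceous lipid genes, which mark the secretory cells of the gland, 5 were below the median gene. Awat2, a wax ester synthase of sebocytes, lay between 10.62 and 11.47 on all 10 arrays, and Awat1, of the same family, between 3.50 and 4.35. All 7 measured markers of other male accessory glands were below the median gene, with a mean of 2.94 to 3.12. Markers of skeletal muscle averaged 4.41 and 4.47 at week 0 and 4.54 to 4.90 later. In whole tissue, fewer cells of a type and less RNA per cell cannot be told apart.

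2 arrays stood apart, week 0 replicate 2 and week 12 replicate 1. The first principal component held 51.2% of the variance, and these arrays scored 42.9 and 48.8 on it while the other 8 lay between -21.1 and 1.2. Their correlation with one another was 0.9852, against 0.9804 between the week 0 arrays. Genes with the longest genomic spans (4694 genes of 47401 bases or more) had a median deviation from the mean array of -0.10 and -0.13 on these arrays and of -0.015 to 0.07 on the others. For the shortest spans (up to 6471 bases) it was -0.070 on week 0 replicate 2 and 0.062 on week 12 replicate 1. The others had -0.053 to 0.056, so short genes lay in opposite directions on the arrays that stand apart. The blood gene Hbb-bt was at 7.92 on week 12 replicate 1 and at 4.70 to 6.47 elsewhere. Because 1 of the 2 week 0 arrays is among them, many results below are also given without both. Weeks 0 and 12 then hold 1 array each, so a difference at week 12 sets 1 array against 1, with the spread taken from weeks 4, 8 and 16 and the lone arrays assumed to vary like those.

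**Figure D1:**
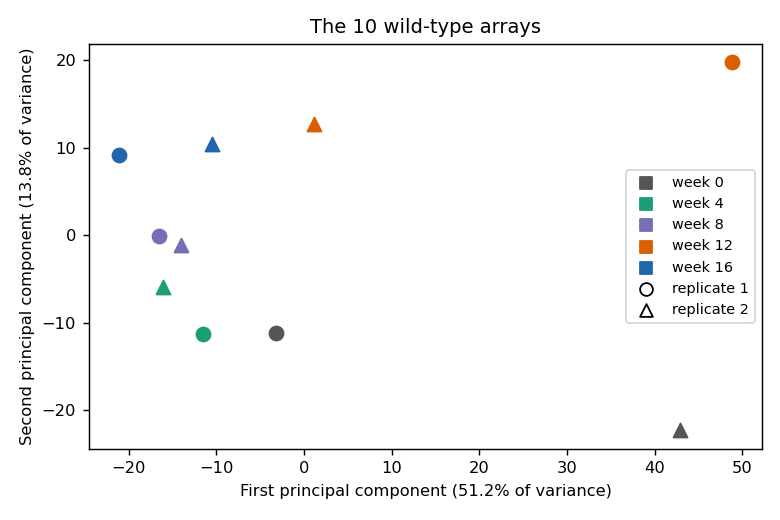
Scores of the 10 wild-type arrays on the first principal component (horizontal axis, 51.2% of the variance) and the second (vertical axis, 13.8%), computed on log2 levels of 18784 genes. Colour gives the week on BaP, circles are replicate 1 and triangles replicate 2. Week 0 replicate 2 and week 12 replicate 1 lie at 42.9 and 48.8 on the horizontal axis, away from the other 8 arrays.

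No gene passed the threshold for weeks 4 to 16 together against week 0 (0% of 18784, smallest adjusted p = 0.276 in limma), and the AhR targets Cyp1a1 and Cyp1b1 were among those that did not. At an unadjusted p under 0.05, 1732 genes (9.22%) were higher on BaP and 1214 (6.46%) lower. On 1222 genes (6.51%) all 8 later arrays lay above both week 0 arrays, and on 501 (2.67%) all lay below. The median difference over all genes was 0.03 log2, and only 12 genes were at least 2-fold higher and 11 at least 2-fold lower. The F test over the 4 later weeks also called no gene (0%), with 2641 genes (14.1%) at an unadjusted p under 0.05. Leaving out a single array, the F test called 15 genes when that array was week 12 replicate 1 and 4 when it was the other array of that week. It called 2 genes with week 0 replicate 1 left out and 1 gene with the other week 0 array left out. Without both arrays that stand apart, 14 genes were called for weeks 4 to 16. Of those, 9 were olfactory receptor genes lower on BaP, judged against the single week 0 array left.

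Cyp1a1, the main inducible target of AhR and the enzyme deleted in both knockouts, was at 4.35 and 4.74 at week 0. On BaP it was at 4.47 and 4.57 at week 4, 4.38 and 4.60 at week 8, 4.69 and 4.26 at week 12, and 4.27 and 4.44 at week 16. The later arrays lie across the week 0 values, and the difference was -0.08 ± 0.15 (n = 8 against 2, adjusted p = 0.771 in limma). Cyp1a1 KO arrays read 3.83 and 3.67 at week 0 and 3.76 to 4.80 on BaP, and DKO arrays 3.96 and 5.33 and then 3.98 to 6.14. The wild-type values thus lay within the range read in mice deleted for the gene. Whether an induction could be seen at this level was not tested. Without week 0 replicate 2 the Cyp1a1 difference turned to 0.11, and without both arrays that stand apart to 0.06. Cyp1b1, the related enzyme expressed outside the liver, was at 6.52 and 6.20 at week 0 and at 6.17 to 6.77 later, a difference of 0.15 ± 0.13 (adjusted p = 0.538 in limma) that turned to -0.0016 without week 0 replicate 2 and was 0.03 without both. Among the 11 measured genes of the AhR list, 4 were higher and 7 lower, with a median difference of -0.08 against 0.03 for all genes, and none was called. That list median turned to 0.03 without both arrays that stand apart and was -0.20 without week 0 replicate 1. Nqo1, a quinone reductase, was at 5.18 and 6.04 at week 0 and at 4.67 to 5.86 later, with week 0 replicate 2 the highest of the 10 arrays. Lrat, which esterifies retinol, was at 4.32 and 4.21 at week 0 and at 4.43 to 4.88 later (0.33 ± 0.12, adjusted p = 0.284 in limma). It was the 1 of 11 AhR list genes whose arrays did not overlap. Over all genes the arrays did not overlap for 6.51% on the higher side and 2.67% on the lower, so this does not set the list apart.

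The genes described next were picked by smallest p over weeks 4 to 16, among genes whose week 0 and later arrays did not overlap. Their small errors and lack of overlap therefore follow from that rule. None of them was called (adjusted p = 0.276 in limma for each). Plod2, the lysyl hydroxylase that sets collagen cross-links, was at 6.51 and 7.0 at week 0, 6.07 and 6.01 at week 4, 6.09 and 6.09 at week 8, 5.81 and 5.63 at week 12, and 5.64 and 5.41 at week 16. All 8 later arrays lay below week 0, those of weeks 12 and 16 lowest, and the difference was -0.91 ± 0.14. Cyp2c37, a monooxygenase of the Cyp2c family, was at 4.06 and 4.26 at week 0, 4.63 and 4.67 at week 4, 5.60 and 5.21 at week 8, 5.33 and 5.80 at week 12, and 4.87 and 5.03 at week 16. Every later array lay above week 0, by 0.98 ± 0.15, and without both arrays that stand apart Cyp2c37 passed the threshold (1.14, adjusted p = 0.0447 in limma). The zinc finger gene Zfp229 was at 5.37 and 5.54 at week 0 and at 4.18 to 4.85 later (-0.87 ± 0.12). Casp4, an inflammatory caspase that senses cytosolic bacterial lipopolysaccharide, was at 8.49 and 8.49 at week 0 and at 8.78 to 9.62 later (0.59 ± 0.10).

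Further lower genes of this group were Lipg, an endothelial lipase (-0.98 ± 0.21), Ly6c1, a surface marker of endothelium and some leukocytes (-0.70 ± 0.15), the ribosomal protein gene Rps20 (-0.78 ± 0.17) and Man1a, a mannosidase of N-glycan trimming (-0.49 ± 0.11). Dpagt1, the first enzyme of N-glycan assembly, and Rnf8, a ubiquitin ligase of the DNA double-strand break response, were lower by similar amounts (-0.58 ± 0.13 and -0.53 ± 0.12). Lipg and Dpagt1 were at -0.53 and -0.37 without week 0 replicate 2 and at -0.55 and -0.36 without both arrays that stand apart. Further higher genes were Inhbb, an activin subunit (0.52 ± 0.10), Lgals3bp, a secreted galectin ligand (0.48 ± 0.10), Cd37, a leukocyte tetraspanin (0.78 ± 0.16), Leap2, a secreted peptide that blocks the ghrelin receptor (0.54 ± 0.11), and the hair keratin-associated gene Krtap9-1 (0.86 ± 0.15). The activating transcription factor gene Fosb was at 3.92 and 3.97 at week 0 and at 4.19 to 4.95 later (0.54 ± 0.11). With week 0 replicate 1 left out, the array that stands apart is the only week 0 array. The differences were then -1.16 for Plod2, 0.89 for Cyp2c37, 0.59 for Casp4 and -0.96 for Zfp229. Those of Lipg, Dpagt1 and Rnf8 were -1.44, -0.79 and -0.69. Inhbb, Cd37, Leap2 and Krtap9-1 were at 0.57, 1.02, 0.65 and 1.05. Over all single arrays left out, the differences smallest in size were -0.66 for Plod2, 0.89 for Cyp2c37, 0.57 for Casp4 and -0.79 for Zfp229. They were -0.38 for Rnf8, 0.46 for Inhbb, 0.54 for Cd37, 0.42 for Leap2 and 0.67 for Krtap9-1.

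Gene lists described the same comparison by function, and no list member was called over weeks 4 to 16. Of 12 MHC class II presentation genes 11 were higher, with a median of 0.31, against 54.2% of all genes higher and a median of 0.03. H2-Ab1, a class II chain, was at 9.09 and 8.71 at week 0 and at 9.17 to 9.69 later (0.43 ± 0.14, adjusted p = 0.276 in limma), and Ccr7, the receptor that guides dendritic cells to lymph nodes, at 5.23 and 5.14 against 5.37 to 5.69. All 10 smooth muscle and contractile genes were higher, with a median of 0.35, and Actg2, an enteric actin, was at 4.03 and 4.20 at week 0 and at 4.31 to 4.72 later. The list medians without both arrays that stand apart were 0.21 for MHC class II and 0.41 for smooth muscle, the H2-Ab1 difference was then 0.27, and without week 0 replicate 2 alone the MHC class II median was 0.18. Skeletal muscle markers, 11 of 12 higher with a median of 0.20, are at the low levels given above, and Tnni2, a fast-fibre troponin, was at 5.04 and 4.96 at week 0 and at 5.37 to 5.53 later. The part of muscle tissue in the values of other lists was not tested.

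Metabolic and proliferative lists leaned the other way, in part with the arrays that stand apart. Of 24 sebaceous lipid genes 7 were higher, 8 had an unadjusted p under 0.05 on the lower side, and the median was -0.17. Scd2, a fatty acid desaturase, was at 6.71 and 7.21 at week 0 and at 5.48 to 6.63 later (-0.68 ± 0.21, adjusted p = 0.276 in limma). Pparg, the nuclear receptor that drives sebocyte differentiation, was at 8.06 and 8.47 against 7.70 to 8.05, while Scd3 was higher, not lower, at 0.33 ± 0.11. Of 13 cholesterol synthesis genes 2 were higher (median -0.29), of 15 glutathione and NRF2 genes 4 (median -0.22), and of 28 cell cycle genes 3 (median -0.26). The mean level of the cell cycle list was 6.22 and 6.73 on the week 0 arrays and 5.91 to 6.39 later, so the array that stands apart at week 0 was the highest of the 10. Without both arrays that stand apart the medians were -0.09 for cholesterol synthesis, -0.12 for glutathione and NRF2, -0.10 for sebaceous lipid and -0.01 for the cell cycle, and the Scd2 difference was -0.35. Without week 0 replicate 1 the medians were -0.45 for glutathione and NRF2, -0.31 for sebaceous lipid and -0.55 for the cell cycle, and without week 0 replicate 2 that of the cell cycle turned to 0.0038. Among p53 and DNA damage genes, which respond to DNA adducts, 10 of 19 were higher with a median of 0.02, which turned to -0.0096 without both arrays. A member of that list, Ei24, had an unadjusted p under 0.05, on the lower side (-0.28 ± 0.10).

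**Figure D2:**
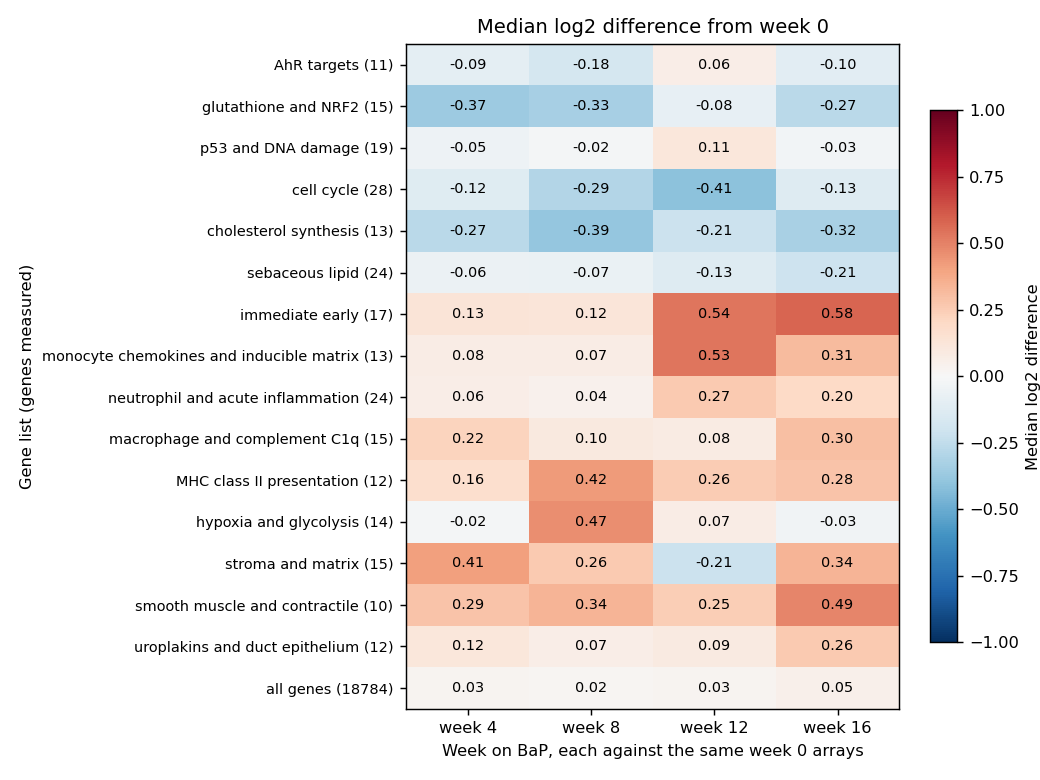
Median log2 difference from week 0 of 15 gene lists and of all 18784 genes (rows, with the number of genes measured) at each week on BaP (columns). All columns share the same 2 week 0 arrays. The immediate early and monocyte chemokine lists reach 0.54 and 0.53 at week 12 (0.015 and 0.42 without week 12 replicate 2, 0.92 and 0.96 without replicate 1), the hypoxia and glycolysis list 0.47 at week 8, and all genes stay between 0.02 and 0.05.

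Week 4 gave no call (0%, smallest adjusted p = 0.530 in limma), with 916 genes (4.88%) higher and 642 (3.42%) lower at an unadjusted p under 0.05. Without week 0 replicate 1 there was 1 call, and without both arrays that stand apart 5. Masp1, a serine protease of the lectin complement pathway, was at 5.29 and 5.22 at week 0 and at 5.93 and 5.93 at week 4 (0.67 ± 0.13), back at 5.14 to 5.39 at weeks 8 and 12 and at 5.75 and 5.71 at week 16. Cyp4a12b, an androgen-responsive fatty acid hydroxylase, was at 4.66 and 4.84 at week 0 and at 3.50 and 3.61 at week 4 (-1.20 ± 0.18). It lay at 5.09 and 4.58 at week 12, around the week 0 levels, and again at 3.51 and 3.65 at week 16. Pebp1, an inhibitor of RAF kinase, had the same order, at 8.86 and 9.50 at week 0, 8.17 and 7.99 at week 4 and 8.95 and 8.85 at week 12. For both genes week 12 lay close to week 0 and the other weeks below. Rps20 was at 7.04 and 6.77 at week 0 and at 6.06 and 5.51 at week 4 (-1.12 ± 0.21). The stroma and matrix list had its highest median at this week, 0.41 with 13 of 15 genes higher, and the mean level of that list was lowest on the arrays that stand apart (6.59 at week 0 and 6.46 at week 12, against 6.83 to 7.18).

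At week 8 no gene was called either (0%, smallest adjusted p = 0.0914 in limma), and 1348 genes (7.18%) were higher and 1263 (6.72%) lower at an unadjusted p under 0.05. Col6a5, a collagen VI chain, came nearest. Its levels were 4.70 and 4.40 at week 0, 4.80 and 4.80 at week 4, 6.35 and 6.04 at week 8, 4.97 and 4.64 at week 12, and 4.93 and 4.70 at week 16. The 2 week 8 arrays stood above the other 8, and the difference was 1.65 ± 0.18. Col6a5 passed the threshold with a trended and robust variance (adjusted p = 0.0473 in limma), with the replicate number as a block (0.04), without both arrays that stand apart (0.0277, 1 of 19 calls) and without week 0 replicate 1 (0.0193).

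Genes of the low-oxygen response were higher at the same week, although none was called. Of 14 hypoxia and glycolysis genes 11 were higher and 6 had an unadjusted p under 0.05 on that side, with a median of 0.47 against 0.02 over all genes. The list's mean level was 7.91 and 7.70 on the week 8 arrays, 7.28 and 7.27 at week 0 and 7.22 to 7.59 at the other weeks. Egln3, the prolyl hydroxylase that marks HIF for degradation and is itself induced by HIF, was at 9.34 and 9.69 at week 0 and at 11.13 and 10.73 at week 8 (1.41 ± 0.23, adjusted p = 0.192 in limma). Vegfa, the main endothelial growth factor, was at 7.72 and 7.40 at week 0 and at 8.96 and 8.46 at week 8 (1.15 ± 0.20). Car9, a HIF-induced carbonic anhydrase, was at 4.62 and 4.69 at week 0, 4.91 and 4.92 at week 4 and 5.79 and 5.38 at week 8. Ndufa4l2, a mitochondrial protein also induced by HIF and outside the list, was at 6.41 and 6.50 at week 0, 8.15 and 7.81 at week 8 and 7.24 and 7.24 at week 12. For Egln3, Vegfa and Ndufa4l2 both week 8 arrays lay above all other arrays, and week 12 lay next for Egln3 and Ndufa4l2. Leaving out both arrays that stand apart left the list median at 0.47, and over single arrays left out it ran from 0.32 to 0.61.

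Other genes near the threshold at week 8 were of several kinds. Zbtb16, a transcription factor induced by glucocorticoid and androgen, was at 5.80 and 4.86 at week 0 and at 7.21 and 7.37 at week 8 (1.96 ± 0.29). The Zbtb16 difference was 1.49 without both arrays that stand apart and then passed the threshold (adjusted p = 0.0359 in limma). Il7r, the interleukin 7 receptor of lymphocytes, was at 4.86 and 4.29 at week 0 and at 6.22 and 6.02 at week 8. Hc, complement component C5, was at 4.39 and 4.53 against 5.62 and 5.27. On the lower side, Crabp1, a retinoic acid binding protein, was at 9.46 and 9.92 at week 0, 8.31 and 8.05 at week 8 and 9.74 and 9.03 at week 12 (-1.51 ± 0.24 at week 8), and it passed the threshold without both arrays that stand apart (-1.28, adjusted p = 0.0349 in limma). With week 0 replicate 1 left out, the array that stands apart is the only week 0 array. The week 8 differences were then 2.43 for Zbtb16, 1.83 for Il7r, -1.74 for Crabp1 and 0.92 for Hc. Those of Ndufa4l2, Vegfa, Egln3 and Car9 were 1.48, 1.31, 1.24 and 0.89, and that of Pebp1 was -1.49. With all 10 wild-type arrays the Pebp1 difference at week 8 was -1.18, and over single arrays left out it ran from -1.49 to -0.86.

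**Figure D3:**
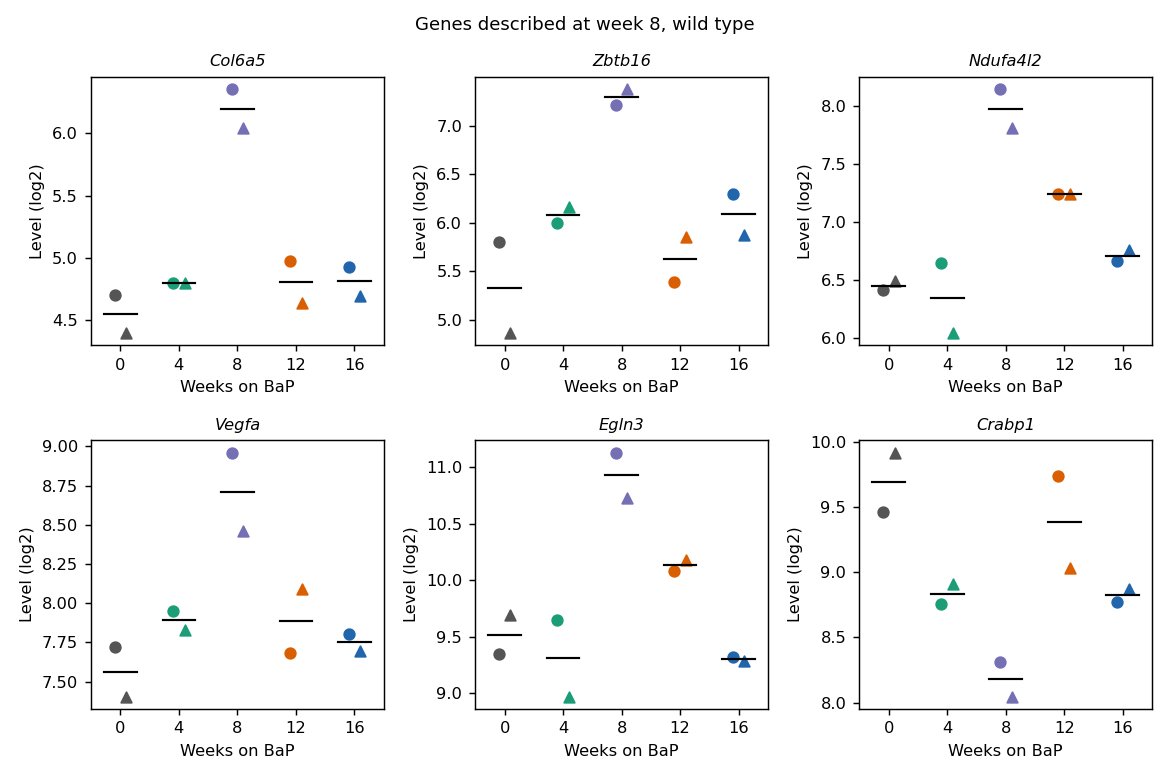
Log2 level (vertical axes) of 6 genes on each wild-type array by weeks on BaP (horizontal axes). Circles are replicate 1, triangles replicate 2, and bars the mean of 2 arrays. At week 8 Col6a5, at 6.35 and 6.04, and Egln3, at 11.13 and 10.73, lie above all other arrays, and Crabp1, at 8.31 and 8.05, lies below them.

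Week 12 held the only calls against week 0: 3 genes rose and none fell (0.016% of 18784), while 923 genes (4.91%) were higher and 1006 (5.36%) lower at an unadjusted p under 0.05. The genes were Ccl2 and Ccl7, neighbouring chemokine genes whose products draw CCR2-bearing monocytes from blood into tissue, and Casp4. RefSeq places the chemokine genes on chromosome 11 and Casp4 on chromosome 9. Tnfaip6, which encodes a hyaluronan-modifying protein secreted in inflammation, had the largest difference at week 12 over all genes and was not called.

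Promoters of these genes are shown because NF-kB and AP-1, which drive inflammatory genes, and AhR, which BaP binds, recognise short DNA motifs. Of the 4 genes, Casp4 and Tnfaip6 matched by symbol in the RefSeq promoter table (build GRCm38.p6), each window running from 250 bases before the transcription start to 50 after it. The Casp4 window is chr9:5308599-5308898 on the + strand, with the NF-kB consensus in capitals, and the Tnfaip6 window is chr2:52037863-52038162 on the + strand, with the AP-1 motif TGANTCA in capitals.
Casp4: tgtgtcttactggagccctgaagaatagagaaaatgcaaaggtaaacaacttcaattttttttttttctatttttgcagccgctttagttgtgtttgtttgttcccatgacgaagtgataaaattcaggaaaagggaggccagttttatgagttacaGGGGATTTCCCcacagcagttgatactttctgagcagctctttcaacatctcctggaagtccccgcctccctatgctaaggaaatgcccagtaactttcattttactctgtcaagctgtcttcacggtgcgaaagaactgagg
Tnfaip6: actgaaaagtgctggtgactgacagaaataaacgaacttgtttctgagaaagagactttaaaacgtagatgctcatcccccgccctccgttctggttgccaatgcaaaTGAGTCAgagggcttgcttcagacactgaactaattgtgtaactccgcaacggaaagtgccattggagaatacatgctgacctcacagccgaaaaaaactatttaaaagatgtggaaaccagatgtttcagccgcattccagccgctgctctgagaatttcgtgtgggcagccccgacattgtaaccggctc
Both strands were searched. The Casp4 window held 2 overlapping matches to the NF-kB consensus, GGGGATTTCC and GGGATTTCCC, which began 93 and 92 bases before the start, and 4.51% of all 32851 promoter windows held a match. A further Casp4 entry in the table starts a few bases away and holds the same matches. The Tnfaip6 window held TGAGTCA 142 bases before the start, a motif found in 7.81% of windows. No AP-1 motif was in the Casp4 window, and no NF-kB consensus was in the Tnfaip6 window. The AhR core GCGTG, found in 32.4% of windows, was in neither sequence. A match describes letters and does not show that a factor binds.

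Ccl2 was at 5.26 and 5.53 at week 0, 5.68 and 5.48 at week 4, 5.20 and 5.03 at week 8, 7.54 and 8.33 at week 12, and 5.89 and 6.44 at week 16. Both week 12 arrays stood above the other 8, and the week 16 arrays came next. The rise at week 12 was 2.54 ± 0.26, or 5.83-fold (n = 2 against 2, adjusted p = 0.0317 in limma). Ccl7 was at 4.92 and 5.35 at week 0, 5.10 and 5.08 at week 4, 5.04 and 5.25 at week 8, 7.10 and 7.51 at week 12, and 5.30 and 5.65 at week 16. It rose by 2.17 ± 0.20, or 4.50-fold (adjusted p = 0.0226 in limma), with no overlap between week 12 and any other week. Casp4 was at 8.49 and 8.49 at week 0, 8.78 and 8.86 at week 4, 8.87 and 8.84 at week 8, 9.55 and 9.62 at week 12, and 9.16 and 8.99 at week 16. All its later arrays were above week 0, those of week 12 highest, and the rise there was 1.10 ± 0.12, or 2.14-fold (adjusted p = 0.0445 in limma).

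Tnfaip6 was at 4.22 and 4.43 at week 0, 4.35 and 5.0 at week 4, 4.14 and 3.74 at week 8, 6.76 and 8.17 at week 12, and 5.12 and 5.80 at week 16. Its week 12 arrays differed from one another by more than those of Ccl2 or Ccl7, and its difference of 3.14 ± 0.42 had an adjusted p of 0.119 in limma. It passed the threshold when the spread was shared with all 30 arrays (0.00351), without week 12 replicate 1 (0.00505) and without both arrays that stand apart (0.00374).

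The calls depended on the setting. Settings that left out arrays of other weeks or changed only the estimate of the spread cannot move a week 12 difference, and over all 21 other settings it ranged from 2.14 to 3.08 for Ccl2, from 1.96 to 2.59 for Ccl7 and from 1.06 to 1.13 for Casp4. The call was lost in 12 settings for Ccl2, 9 for Ccl7 and 18 for Casp4. Leaving out either array of week 4, 8 or 16, or week 0 replicate 1, ended all 3 calls, with adjusted p of 0.0593 to 0.188 in limma, and without week 0 replicate 2 Ccl2 (0.114) and Casp4 (0.171) were lost. Array weights (0.0876 to 0.444) and a fit on weeks 0 and 12 alone (0.991 for each) ended them too. With all 30 arrays Ccl2 (0.237) and Casp4 (1.00) were lost, and quantile normalization lost Ccl2 (0.0504) and Casp4 (0.115). Casp4 alone was lost with median centring (0.0619), the filter on low values (0.0556), all probe sets tested together (0.0578), the trended and robust variance (0.0657), the replicate block (0.112) and without week 12 replicate 2 (0.0693). Without week 12 replicate 1, 26 genes were called and all 3 were among them. The 70 genes called without both arrays that stand apart also held all 3, in a comparison of 1 array with 1.

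**Figure D4:**
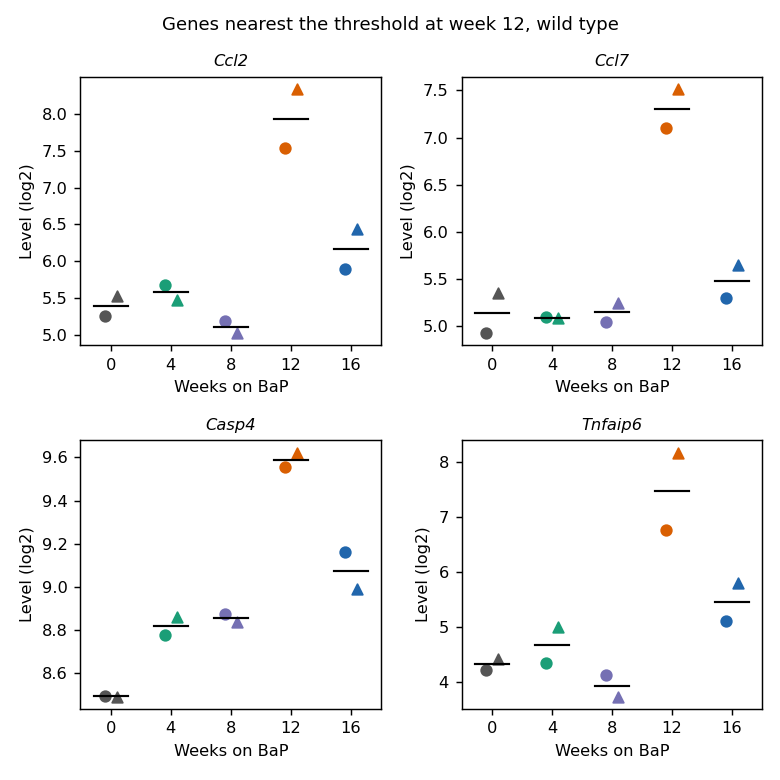
Log2 level (vertical axes) of Ccl2, Ccl7, Casp4 and Tnfaip6 on each wild-type array by weeks on BaP (horizontal axes). Circles are replicate 1, triangles replicate 2, and bars the mean of 2 arrays. In each panel both week 12 arrays lie above all other arrays, for Ccl2 at 7.54 and 8.33 against 5.03 to 6.44.

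Most other genes of the monocyte chemokine and neutrophil lists were higher at week 12, and none of them was called. In the monocyte chemokine and inducible matrix list, which holds Ccl2, Ccl7 and Tnfaip6, 12 of 13 genes were higher with a median of 0.53, which was 0.96 without week 12 replicate 1 and 0.81 without both arrays that stand apart. In the neutrophil and acute inflammation list, 22 of 24 genes were higher with a median of 0.27, and 11 had an unadjusted p under 0.05 on that side, none on the other. The neutrophil median was 0.45 without week 12 replicate 1 and 0.43 without week 0 replicate 1. Cxcl2, a neutrophil chemokine, was at 3.06 and 2.76 at week 0, 3.10 and 3.63 at week 4, 3.22 and 3.17 at week 8, 4.15 and 5.11 at week 12 and 3.96 and 3.96 at week 16. The week 12 arrays were the highest and week 16 came next (1.72 ± 0.28 at week 12, adjusted p = 0.209 in limma), and the gene passed the threshold without week 12 replicate 1 (2.20, 0.0104) and without both arrays that stand apart (2.05, 0.00901). Il1b, the fever-inducing interleukin, chosen after its values were seen, was at 5.33 and 4.64 at week 0, 5.86 and 7.24 at week 12 and 6.13 and 6.62 at week 16. Saa3, an acute-phase protein also chosen that way, was at 3.64 and 3.78 at week 0 and at 4.55 and 4.88 at week 12, above all other arrays. Of 15 macrophage markers 9 were higher at this week, with a median of 0.08, and of 15 interferon genes 7, with a median of -0.11. The antimicrobial peptide gene Defb6 was at 8.76 and 8.78 at week 0, 9.80 and 9.75 at week 12 and 8.52 to 8.91 at the other weeks (1.00 ± 0.14, adjusted p = 0.131 in limma).

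Immediate early genes are those that cells switch on within minutes of a stimulus. All 17 measured were higher at week 12 (median 0.54), and 14 of 17 at week 16 (median 0.58). The 2 week 12 arrays differed widely here: the list's mean level was 6.63 on replicate 1, which stands apart, and 7.84 on replicate 2, against 6.83 and 6.42 at week 0. The week 12 median was 0.015 without replicate 2 and 0.92 without replicate 1 of that week, and 0.32 without week 0 replicate 2, so it rested on week 12 replicate 2. Egr1, a zinc finger transcription factor chosen after its values were seen, showed it most, at 8.00 and 5.85 at week 0, 7.18 and 10.66 at week 12 and 8.38 and 9.56 at week 16, so its week 12 and week 0 arrays overlapped. Nr4a2, an orphan nuclear receptor, was at 5.07 and 4.62 at week 0, 5.60 and 5.76 at week 12, and 5.81 and 6.29 at week 16.

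Lower genes at week 12 were not called either. Myorg, a glycosidase, was at 5.56 and 5.55 at week 0 and at 4.46 and 4.44 at week 12, below the 5.14 to 5.66 of the other weeks (-1.11 ± 0.16, adjusted p = 0.131 in limma). Fermt1, the kindlin that links integrins to actin in epithelium, was at 6.94 and 6.87 at week 0, 5.83 and 6.20 at week 12 and 6.67 to 7.03 elsewhere. Cdca7l, a Myc-associated nuclear protein, was at 6.93 and 7.06 against 6.30 and 6.21. In the cell cycle list 1 of 28 genes was higher at week 12, the median was -0.41, and 11 had an unadjusted p under 0.05 on the lower side. The list's mean level was 6.21 and 5.91 at week 12 against 6.22 and 6.73 at week 0. The median was -0.33 without both arrays that stand apart, -0.13 without week 0 replicate 2 and -0.68 without week 0 replicate 1. Stromal genes had a median of -0.21 at this week, with 4 of 15 higher, and of 0.26 to 0.41 at the other weeks. The week 12 median turned to 0.015 without week 0 replicate 1 and to 0.0074 without week 12 replicate 1, on which the mean level of the list was lowest.

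Week 16 had the most genes past an unadjusted p of 0.05, 2200 (11.7%) higher and 1583 (8.43%) lower, and no call (0%, smallest adjusted p = 0.179 in limma). Fosb was at 3.92 and 3.97 at week 0 and at 4.75 and 4.95 at week 16, its highest arrays (0.90 ± 0.13). Lgals3bp was at 4.81 and 4.72 at week 0, 5.31 and 5.29 at week 4, 5.11 and 5.22 at week 8, 4.95 and 4.97 at week 12 and 5.57 and 5.53 at week 16, where the difference was 0.78 ± 0.12. Its replicates lay close together at every week, and all later arrays lay above week 0. The difference from week 0 was -1.23 ± 0.18 for Plod2 and -1.17 ± 0.15 for Zfp229. Snhg16, a host transcript of small nucleolar RNAs, was at 5.81 and 5.56 at week 0 and at 4.72 and 4.56 at week 16. The smooth muscle list had its highest median here, 0.49 with all 10 genes higher.

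In the uroplakin and duct epithelium list, Upk1b and Krt7 had their highest levels at week 16, and no member was called. Upk1b, a membrane plaque protein of urothelium, was at 5.70 and 4.14 at week 0, 5.92 and 6.42 at week 4, 4.13 and 5.47 at week 8, 4.30 and 5.12 at week 12, and 7.23 and 7.18 at week 16 (2.29 ± 0.53, adjusted p = 0.179 in limma). Krt7, a keratin of simple and ductal epithelium, was at 6.16 and 5.08 at week 0 and at 6.94 and 6.89 at week 16 (1.30 ± 0.31). For both genes the week 16 arrays lay close together above all others, while the week 0 arrays were wide apart, and replicate 2, which stands apart, was the lower. Without both arrays that stand apart the difference was 1.51 for Upk1b (adjusted p = 0.162 in limma) and 0.76 for Krt7 (0.099). Upk1a, of the same uroplakin family, had the other direction, at 6.71 and 7.01 at week 0 and 6.05 and 6.22 at week 16. Of the 12 genes of that list 11 were higher at week 16, with a median of 0.26, or 0.24 without both arrays that stand apart. With week 0 replicate 1 left out, the array that stands apart is the only week 0 array. The week 16 differences were then 3.07 for Upk1b, 1.84 for Krt7, 0.88 for Fosb and 0.83 for Lgals3bp. Those of Plod2, Zfp229 and Snhg16 were -1.48, -1.25 and -0.92. Leaving out week 16 replicate 1 gave 1 call, and leaving out both arrays that stand apart 7.

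The change over weeks 4 to 16 in wild type was then tested against the same change in each knockout, in fits on the 20 arrays concerned. No gene differed from Cyp1a1 KO (0%), with 803 genes (4.27%) at an unadjusted p under 0.05, while 2 were called without Cyp1a1 KO week 0 replicate 2 and 1 without Cyp1a1 KO week 12 replicate 2. From DKO 4 genes differed (0.0213%), and 802 (4.27%) had an unadjusted p under 0.05. The knockout arrays were more variable. The median SD within a group was 0.168 in wild type, 0.342 in Cyp1a1 KO and 0.56 in DKO, and the SD of all log2 values on an array was below the lowest wild-type value on 7 of 10 KO and 10 of 10 DKO arrays. The part of this narrower range in the differences was not tested.

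The 4 genes that differed from DKO were Defb4, an epithelial defensin, Stfa1, a cysteine protease inhibitor of neutrophils and keratinocytes, Krt1, a keratin of cornifying epidermis, and Rptn, a cornified-layer matrix protein. Defb4 was at 3.76 and 3.56 at week 0 and at 3.08 to 4.45 later in wild type, and at 3.16 and 4.43 and then 6.70 to 11.04 in DKO. The wild-type arrays stayed low at every week, and the DKO arrays on BaP did not overlap their week 0. The change was -0.23 in wild type and 5.91 in DKO, a difference of -6.14 ± 0.58 (adjusted p = 0.000161 in limma). Stfa1 differed by -6.49 ± 0.69 (0.000379), with 3.09 to 6.39 in wild type on BaP and 7.88 to 12.56 in DKO. Krt1 differed by -4.22 ± 0.62 (0.0216), with 3.71 to 4.26 in wild type on BaP and, in DKO, 4.47 and 5.37 at week 0 and 4.93 to 11.02 on BaP, where the groups overlap. Rptn, at 7.23 to 7.36 at week 0 and 6.39 to 7.37 later in wild type, differed by -3.98 ± 0.64 (0.0477), with 8.76 to 11.31 in DKO on BaP. Its call was lost with all 30 arrays (0.147), with array weights (0.926), with the replicate block (0.0639) and when any of 15 of the 20 arrays was left out, and array weights also ended the calls of Stfa1 (0.604) and Krt1 (0.114). Krt1 was lost with quantile normalization too (0.0735) and when any of 5 of the 20 arrays was left out, with adjusted p up to 0.216. Without both wild-type arrays that stand apart Defb4 (0.00477) and Stfa1 (0.0155) kept their calls, and Krt1 (0.41) and Rptn (0.563) did not. The count was 2 without either week 0 array or either week 4 array of wild type or without its week 16 replicate 2, 31 without DKO week 0 replicate 1, 22 without DKO week 0 replicate 2, 12 without DKO week 8 replicate 1 and 8 without DKO week 16 replicate 2.

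Cyp1b1 came nearest in the comparison with Cyp1a1 KO, at 6.20 and 6.52 at week 0 and 6.17 to 6.77 later in wild type, and at 6.66 and 6.69 and then 7.71 to 8.82 in Cyp1a1 KO. The wild-type groups overlapped and the KO groups did not, and the difference in change was -1.64 ± 0.32 (unadjusted p = 0.000118 and adjusted p = 1 in limma). In DKO, where Cyp1b1 itself is deleted, the same probe set read 8.74 and 7.48 at week 0 and 9.48 to 10.57 on BaP. Its level is therefore not by itself a measure of working Cyp1b1. Without Cyp1a1 KO week 12 replicate 2 the Cyp1b1 difference was -1.77 and passed the threshold (adjusted p = 0.0138 in limma).

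**Figure D5:**
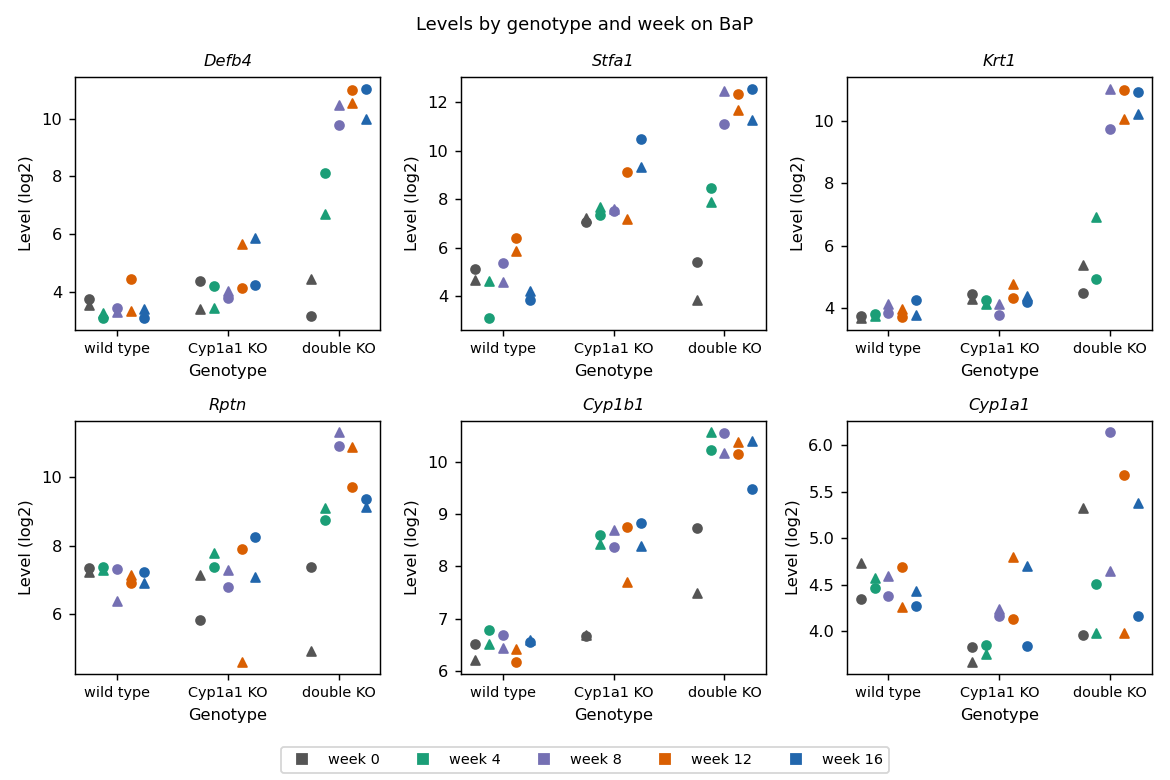
Log2 level (vertical axes) of 6 genes on all 30 arrays by genotype (horizontal axes), with colours for the week on BaP, circles for replicate 1 and triangles for replicate 2. In wild type Defb4 stays between 3.08 and 4.45 on BaP while DKO arrays on BaP lie between 6.70 and 11.04, and Cyp1b1 stays between 6.17 and 6.77 in wild type while Cyp1a1 KO arrays on BaP lie between 7.71 and 8.82. Cyp1b1 reads 9.48 to 10.57 on DKO arrays on BaP, although the gene is deleted there.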

How the data were processed

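Per the labels' protocols, RNA of frozen glands was extracted, amplified (Ovation Pico WTA) and biotin-labelled. The deposited files hold log2 intensity per probe set, which the authors made with RMA per the submitters' processing notes, where no version is given. They were used as deposited, with no filter. RMA makes arrays share one distribution within the set it is run on. The deposited gene levels did not share one. Wild-type array medians ran from 5.184 to 5.357 and SDs from 1.891 to 2.074, while DKO SDs ran from 1.117 to 1.821. How far a broad shift of all genes would still be seen was not tested. Of 21212 probe sets, 18786 had 1 gene symbol, 6 several and 2420 none listed. The probe set with the highest mean stood for a gene, which gave 18784 genes, of which 18773 matched RefSeq by gene ID. limma 3.58.1 under R 4.3.3 fitted the 10 wild-type arrays with a mean for each week (residual degrees of freedom 5, prior 4.5), and 20 arrays for each difference between genotypes. All tests were two-sided, adjusted by the Benjamini-Hochberg method, and the script was tested on simulated data. The labels say that each group holds 2 mice. Precision is limited by this number. The members, the 30 gene lists (421 of 469 genes measured) and the tests were chosen with earlier results of these data known. Named genes were, for weeks 4 to 16, up to 15 in each direction whose arrays did not overlap, for single weeks up to 8 called or the 4 of smallest p in each direction, for genotype differences the 4 of smallest p in each direction, up to 4 members of each list, and Cyp1a1 and Cyp1b1, without predicted gene models. The text names a part of these. Settings left out or changed for comparison are given in the closing section.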

Additional observations from a re-analysis of the deposited data

Results flagged for a closer look

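Wild type and DKO differed in their change from week 0 in 4 genes, by an interaction term in limma on 20 arrays. Defb4 changed less in wild type than in DKO by -6.14 on the log2 scale, Stfa1 by -6.49, Krt1 by -4.22 and Rptn by -3.98. Groups of 2 arrays were too small to look for single outlying arrays within a group gene by gene. The 2 wild-type arrays that stand apart were found among all 10 wild-type arrays, by their scores on the first principal component.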

How the results depend on the processing

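The deposited values limit every result to 2 mice a week and to a week 0 group of which 1 array stands apart. Replicate numbers were not taken as pairs in the main fit. Differences between replicates 1 and 2 correlated between -0.554 and 0.288 over 10 pairs of weeks, 8 of them under 0.1. The arrays that stand apart enter these values with opposite replicate numbers, so the values cannot show whether replicate numbers pair the samples. With the replicate block, the counts of called genes were 0, 0, 1, 3 and 0 for weeks 4 to 16, 4, 8, 12 and 16, 1 for the F test, and 0 and 3 for the differences from Cyp1a1 KO and DKO. The week 12 count of 3 was 1 with quantile normalization, and 0 with array weights or only the groups compared. The week 8 count of 0 was 1 with a trended and robust variance, as was that of the F test, which was 30 with array weights and 2 with all 30 arrays. The DKO difference count of 4 was 7 with all 30 arrays and 1 with array weights. Without both arrays that stand apart, a setting chosen after seeing the data, the counts were 14, 5, 19, 70 and 7, 120 for the F test and 2 for the DKO difference. Leaving out 1 array at a time gave 0 to 872 for weeks 4 to 16, 0 to 1 at week 4, 0 to 1171 at week 8, 0 to 26 at week 12, 0 to 1391 at week 16, 0 to 15 for the F test, 0 to 2 for the Cyp1a1 KO difference and 2 to 31 for the DKO difference. The highest of these counts for weeks 4 to 16, 8 and 16 came without week 0 replicate 1. That fit has the array that stands apart as its only week 0 array. Of 2180 values of named genes under other settings, 3 had the opposite sign, namely Cyp1a1 at 0.1097 and Cyp1b1 at -0.0016 without week 0 replicate 2 (-0.2785 and 0.3107 without week 0 replicate 1), and Cyp1a1 at 0.0557 without both arrays that stand apart. Of 814 list medians 34 changed sign. Settings that changed only the estimate of the spread, or left out arrays outside a comparison, cannot move a difference. Genes picked for no overlap cannot change sign when an array is left out. The counts of signs were thus in large part fixed in advance and do not measure how firm a result is. The cause of the shifts between settings was not tested.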

Other observations

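Probe sets without 1 gene symbol, 2426 in all, were fitted together with the named ones in a setting chosen after seeing the data. None of them was called at any week. The share with an unadjusted p under 0.05 was 14.9% for weeks 4 to 16, against 15.3% of the named genes in the same fit. It was 9.89% against 7.97% at week 4, 12.7% against 13.5% at week 8, 10.2% against 10.1% at week 12 and 20% against 19.8% at week 16.

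Without both arrays that stand apart, the week 12 difference was 2.10 for Spink14, a serine protease inhibitor, and 2.08 for Hbegf, a ligand of the EGF receptor. It was 1.98 for Arc, an immediate early gene best known from neurons. These genes are outside the lists described above. Ccn1, a matricellular protein, had a difference of 2.62. The immediate early list holds Ccn1 under its older symbol Cyr61, which was not matched, so the 17 genes measured there leave it out. Each value is a log2 difference of the single week 12 array left from the single week 0 array left, with the spread taken from the other weeks. The genes named were chosen after their values were seen. Of the 70 genes called there, 55 were higher and 15 lower, and 12 were olfactory receptor genes.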
